A study of Mus musculus with 40 samples.

Results

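The cytochrome P450 genes of the Cyp4f and Cyp4v subfamilies were followed in the livers of mice given GenX, the ammonium salt of hexafluoropropylene oxide dimer acid. The group holds 7 of the 21448 gene symbols on the assay: *Cyp4f13*, *Cyp4f14*, *Cyp4f15*, *Cyp4f16*, *Cyp4f17*, *Cyp4f18* and *Cyp4v3*. They were taken by symbol, without regard to their values. Wild-type Crl:CD1(ICR) mice, an outbred stock, were dosed by oral gavage for 90 days with 0.1, with 0.5 or with 5 mg/kg bw/d, and control mice received deionized water. Each dose and the control held 5 males and 5 females, which made 8 groups and 40 libraries. RNA on probes was counted by TempO-Seq, in which a pair of DNA oligomers that meet on a target RNA are joined, amplified and sequenced. The material of a mouse was a single section of formalin-fixed, paraffin-embedded liver, so fewer cells of a type and less RNA per cell cannot be told apart. The age of the mice was not given in the sources used here.

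These enzymes sit in the endoplasmic reticulum and add a hydroxyl group at or near the last carbon of a fatty chain, the omega position, using electrons passed on by cytochrome P450 reductase. Alcohol and aldehyde dehydrogenases can take the product on to a dicarboxylic acid, which peroxisomes shorten. *Cyp4f14* encodes a leukotriene B4 omega-hydroxylase that also starts the breakdown of vitamin E in mouse liver, and *Cyp4f18* encodes the enzyme that hydroxylates leukotriene B4 in neutrophils. *Cyp4v3* is the mouse counterpart of human *CYP4V2*, a fatty acid omega-hydroxylase whose loss causes a crystalline retinal disease. The Cyp4a enzymes, which do the same chemistry on medium-chain fatty acids, are classical targets of the nuclear receptor PPARα.

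The stretch of coding sequence around the cysteine that holds the heme iron is shown to let the likeness of the members be seen, because probes of similar genes may share reads. The transcripts are those of GENCODE M21 on GRCm38, 5′ to 3′, and capitals mark the codons of the invariant residues of the P450 signature (phenylalanine, glycine, cysteine and glycine).
Cyp4f14: TTCtcggcgGGAcccaggaacTGCataGGA
Cyp4f15: TTCtccgctGGGcccaggaacTGCataGGA
Cyp4f13: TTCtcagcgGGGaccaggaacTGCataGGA
Cyp4f16: TTTtctgccGGGcccaggaacTGCataGGA
Cyp4f17: TTTtctgctGGGcctaggaacTGCataGGA
Cyp4f18: TTCtcggctGGGcccaggaacTGCataGGA
Cyp4v3: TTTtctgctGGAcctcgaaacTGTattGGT
The Cyp4f stretches differed from each other at 1 to 5 of 30 bases, and *Cyp4v3* differed from them at 6 to 11. In *Cyp4f14*, the stretch begins in exon 11, at chr17:32906049-32906065 on the minus strand, and ends in exon 12 of 12, at chr17:32905666-32905678. Over the whole coding sequence, pairs of Cyp4f genes were 74.8% to 84.3% identical, and *Cyp4v3* was 50.6% to 52.5% identical to them. The longest run of identical bases in a pair of Cyp4f genes was 37 to 101 bases and was longest for *Cyp4f16* and *Cyp4f17*. The sequences of the probes were not used here, so whether a probe lies in such a run is not known, and a split of reads between these paralogs is a limit on each value below.

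The 39 libraries used held 10341341 to 15562253 reads. A female library of the 0.5 mg/kg group (mouse 355) did not enter the comparisons, as its total of 6711981 was more than 2 SD under the mean total, the criterion of the study. In a smoothed histogram of the counts of each library, the highest point between 15 and 110 reads lay at 20.8 to 49.8 reads. This point was taken as the reads of 1 captured molecule, and whether counts gathered at its multiples was not examined. On that basis a library stood for an estimated 287241 to 656745 molecules. That number moved with dose in males, with 287241 to 369995 in controls and 483009 to 656745 at 5 mg/kg, whereas in females it was 307765 to 521441 and 306231 to 339820. Reads on *Ddx3y* were present in 20 of 20 male libraries and reads on 4 Y-linked genes in 0 of 20 female libraries. The 7 members had 11 probes. Of these, 9 probes of 6 members passed the filter on low counts, and both *Cyp4f18* probes had 0 reads in all 39 libraries.

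Livers of both sexes had decreased *Cyp4f14* at 5 mg/kg and by edgeR, with an adjusted p under 10% as the threshold, no other member was called against control at any dose. DESeq2, which the study used with the same threshold, also called *Cyp4f13* lower in males. It did so at 0.1 mg/kg (adjusted p = 0.0520), 0.5 mg/kg (0.00170) and 5 mg/kg (0.00369). Levels are given as CPM, the reads on the most counted probe relative to the total of the library after TMM scaling. In males, the 5 controls had 104, 107, 108, 114 and 115 CPM, and the 5 mice at 5 mg/kg had 9.09, 24.1, 24.9, 33.9 and 48.2 CPM. In females, the controls had 89.5, 119.9, 122, 122 and 132 CPM, and the mice at 5 mg/kg had 13.5, 18.1, 24.8, 32.2 and 43.7 CPM. In each sex, every treated mouse lay below every control, which was so for 3.19% of the 17877 probes in males and 1.49% in females. The mean fell from 110 ± 4.69 CPM (SD, n = 5) to 28.03 ± 14.4 CPM in males, a 3.92-fold decrease (log2 fold change −1.97 ± 0.27 SE, adjusted p = 3.89e-07). It fell from 117 ± 16.2 to 26.5 ± 11.9 CPM in females, a 4.43-fold decrease (log2 fold change −2.15 ± 0.27 SE, adjusted p = 1.19e-07). By p value the probe ranked 135 of 17877 in males, where 8.28% of probes were called in either direction, and 55 of 17877 in females, where 3.66% were.

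**Figure D1:**
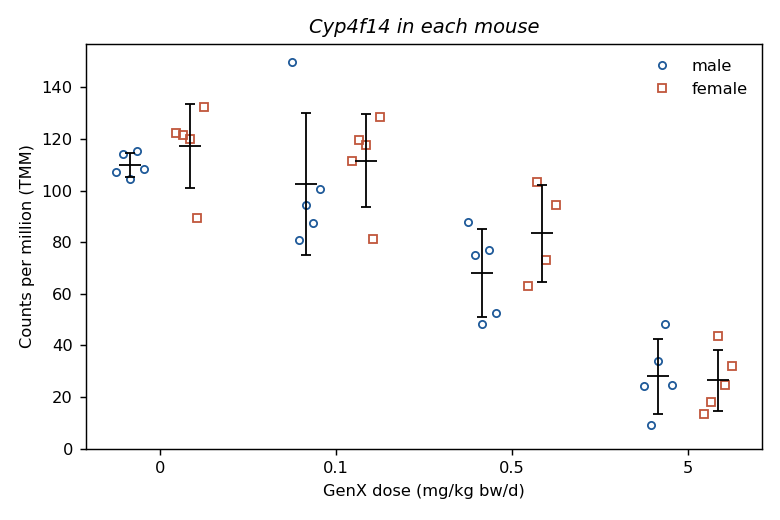
*Cyp4f14* in each mouse, in CPM scaled by TMM, against the dose of GenX. Circles are males, squares are females, and black bars are the mean ± SD of each group. All 10 mice at 5 mg/kg lie below all 10 controls.

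At the lower doses, the group means of *Cyp4f14* lay between these ends and in the order of dose. At 0.5 mg/kg the males had 48.5, 52.4, 75.1, 77.0 and 87.9 CPM, all below the controls, and the 4 females had 63.0, 72.9, 94.2 and 103 CPM, which overlapped the controls. Neither difference from control was called. The log2 fold change was −0.69 ± 0.26 SE in males (adjusted p = 0.236) and −0.49 ± 0.28 SE in females (adjusted p = 0.552). In males the difference was called when only the groups compared were fitted in edgeR (adjusted p = 0.0475). At 0.1 mg/kg the males had 80.9, 87.3, 94.4, 100.5 and 149.7 CPM and the females 81.3, 111, 118, 119 and 128 CPM, so both groups overlapped their controls, with log2 fold changes of −0.10 ± 0.26 and −0.07 ± 0.26 SE. The step from 0.5 to 5 mg/kg was called in males (log2 fold change −1.28 ± 0.27 SE, adjusted p = 0.00207) and in females (−1.66 ± 0.28 SE, adjusted p = 0.000173), again with no overlap. The step from 0.1 to 0.5 mg/kg was not called in either sex (adjusted p = 0.334 and 0.762). With the library of mouse 355 included, neither step from 0.5 to 5 mg/kg was called (adjusted p = 0.382 in males and 0.294 in females), while the comparisons of 5 mg/kg with control still were.

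The ratio of *Cyp4f14* reads to *Cyp4f15* reads in the same library, which needs no scaling, was also lower at 5 mg/kg. This ratio ran from 0.755 to 1.30 in control males and from 0.0863 to 0.438 in males at 5 mg/kg. In females it ran from 0.888 to 2.47 in controls and from 0.111 to 0.727 at 5 mg/kg, so that the groups did not overlap in either sex. The ratio was chosen after the values had been seen and was not tested.

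Markers of hepatocytes moved in the same direction. Of 6 listed, 5 were matched to a probe by symbol, none of them at 0, and 4 (*Ahsg*, *Apoa1*, *Hnf4a* and *Cps1*) were called lower at 5 mg/kg in each sex, while *Alb* was not. Transferrin, the sixth, was listed under another symbol, and its probe (*Trf*) had log2 fold changes of −0.96 ± 0.12 SE in males (adjusted p = 3.67e-08) and −0.67 ± 0.12 SE in females (adjusted p = 0.000111). The summed level of the 5 matched markers, without *Trf*, was 29000 to 36020 CPM in control males and 16200 to 21890 CPM at 5 mg/kg. In females it was 20790 to 38880 and 13760 to 21360 CPM. Most of this sum was *Apoa1*, with means of 26559.5 CPM in control males and 14393.4 CPM at 5 mg/kg. In females its means were 20296.4 and 12404 CPM. The paper states that PPARα activation reduces *Apoa1* in rodents and that its own data showed this. The sum is therefore mainly a level of *Apoa1*. The median log2 fold change over the 5 was −0.88 in males and −0.71 in females, smaller in size than that of *Cyp4f14*. Of 7 stellate cell markers, *Col1a1* and *Col3a1* were called higher in males at 5 mg/kg where the sum over the 7 was 103.9 to 184.1 CPM in controls and 199.5 to 250.7 CPM at 5 mg/kg, and 0 were called in females. For markers of neutrophils, lymphocytes, dendritic cells, macrophages, endothelial cells and bile ducts, edgeR called 0 at 5 mg/kg, with an unadjusted p under 0.05 for 5 markers in males and 7 in females, and DESeq2 called 1 macrophage marker in males. The part of these differences in the result for *Cyp4f14* was not tested.

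*Cyp4v3* and *Cyp4f15*, the other members with many reads, were not called by edgeR in any comparison. In males the *Cyp4v3* level ran from 186 to 254 CPM in controls and from 149 to 284 CPM at 5 mg/kg, and in females from 92.7 to 188 and from 126 to 165 CPM. All treated groups overlapped their controls. At 5 mg/kg the log2 fold change was −0.11 in males, with a 95% interval from −0.47 to 0.24, and −0.04 in females, with an interval from −0.39 to 0.32. *Cyp4f15* had 82.5 to 144 CPM in control males and 105 to 139 CPM at 5 mg/kg, and 49.5 to 135 and 60.2 to 167 CPM in females. Its log2 fold change at 5 mg/kg was 0.12, with an interval from −0.32 to 0.55, in males and 0.14, with an interval from −0.30 to 0.57, in females. For both genes the intervals leave out the size of change seen in *Cyp4f14*. Between the 6 comparisons of a dose with control, the log2 fold change ran from −0.11 to 0.35 for *Cyp4v3* and from −0.28 to 0.16 for *Cyp4f15*.

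**Figure D2:**
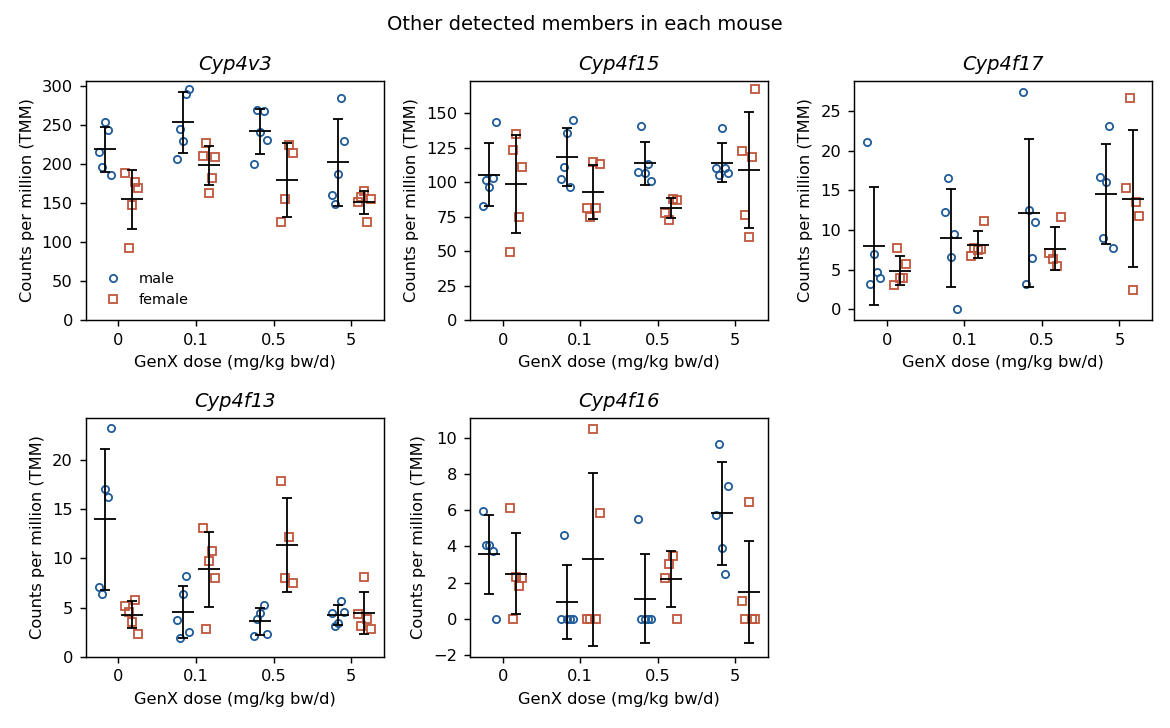
The other 5 detected members in each mouse, in CPM scaled by TMM, against the dose of GenX. Circles are males, squares are females, and black bars are the mean ± SD of each group. *Cyp4v3* and *Cyp4f15* overlap their controls at each dose, and in *Cyp4f13* the control males reach 23.2 CPM.

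*Cyp4f13* had a lower mean in treated than in control males at each dose, and no difference was called by edgeR. The control males had 6.39, 7.05, 16.3, 17.01 and 23.2 CPM. The males had 1.90, 2.56, 3.71, 6.38 and 8.20 CPM at 0.1 mg/kg, 2.07, 2.30, 3.86, 4.44 and 5.27 CPM at 0.5 mg/kg, and 3.148, 3.43, 4.46, 4.58 and 5.68 CPM at 5 mg/kg. The groups at 0.5 and 5 mg/kg did not overlap the controls, and the group at 0.1 mg/kg did. The log2 fold changes were −1.62 ± 0.66 SE (adjusted p = 0.350), −1.96 ± 0.67 SE (adjusted p = 0.158) and −1.71 ± 0.66 SE (adjusted p = 0.132). At 5 mg/kg, 4 of 7 other settings called it lower, among them DESeq2 (adjusted p = 0.00369), the 3 probes of the gene summed (0.0118) and counts in molecules (0.0236). At 0.5 mg/kg 2 of 7 did, and at 0.1 mg/kg 1 of 7. The other probes had log2 fold changes of −2.35 ± 1.81 and −2.08 ± 2.05 SE in males at 5 mg/kg, which were not called. In males at 0.1 mg/kg they had −1.63 ± 1.77 and −0.47 ± 1.98 SE, not called either. At 0.5 mg/kg they had −0.03 ± 1.72 and −0.87 ± 1.99 SE, so the decrease there was not seen on the first of them. The values of the most counted probe rest on a median of 5.46 molecules in a control male and 2.32 in a male at 5 mg/kg.

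In females the mean of *Cyp4f13* on its most counted probe was not below the control mean at any dose. The control females had 2.33, 3.54, 4.55, 5.19 and 5.80 CPM, all below the control males, and the difference between the sexes in controls was −1.71 ± 0.66 SE in log2 (adjusted p = 0.218 with edgeR and 0.00915 with DESeq2). The females had 2.83 to 13.1 CPM at 0.1 mg/kg, 7.52 to 17.8 CPM at 0.5 mg/kg and 2.87 to 8.13 CPM at 5 mg/kg, and at 0.5 mg/kg all 4 lay above the controls. The log2 fold changes were 1.05 ± 0.65, 1.41 ± 0.69 and 0.06 ± 0.65 SE, none of them called. The difference between the sexes in the change from control was 2.67 ± 0.93 SE in log2 at 0.1 mg/kg (adjusted p = 0.246), 3.37 ± 0.96 SE at 0.5 mg/kg (adjusted p = 0.17) and 1.77 ± 0.92 SE at 5 mg/kg (adjusted p = 0.422). DESeq2 called the first of these (adjusted p = 0.0107) and the second (0.000179), and counts in molecules called the second (0.0789). All of these are values of the most counted probe. In females they rest on a median of 1.79 molecules in controls and 1.37 at 5 mg/kg. In females at 0.5 mg/kg the other probes had log2 fold changes of −1.90 ± 1.93 and 0.95 ± 2.09 SE, so the first went the other way. Their difference between the sexes at 0.5 mg/kg was −1.88 ± 2.54 and 1.82 ± 2.89 SE, not called by edgeR.

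*Cyp4f17* had its highest group means at 5 mg/kg in both sexes, and no difference was called. The control males had 3.152 to 21.1 CPM and the males at 5 mg/kg 7.75 to 23.1 CPM, and the females had 3.06 to 7.72 and 2.47 to 26.6 CPM, so the groups overlapped. The log2 fold change was 0.86 ± 0.70 SE in males (adjusted p = 0.644), or 1.63 ± 0.75 SE without mouse 101, the control male at 21.1 CPM (adjusted p = 0.230), and 1.51 ± 0.71 SE in females (unadjusted p = 0.0377, adjusted p = 0.258). *Cyp4f16* was near the limit of the assay, with reads in 22 of 39 libraries on its most counted probe and a median of 0.817 molecules. It had 0 to 5.94 CPM in control males and 2.48 to 9.68 CPM at 5 mg/kg, and 0 to 6.12 and 0 to 6.45 CPM in females. The SE of its log2 fold changes against control was 2.02 to 2.15, so no change of a few fold was detectable at this depth.

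*Cyp4f18*, the neutrophil enzyme, had no read in the 39 libraries on either probe and was therefore not tested. In a single library, 0 reads allow up to 3 captured molecules for counting error alone. Zeros in all 39 libraries allow fewer on average. *Ly6g*, a neutrophil marker, had reads in 36 of 39 libraries, with a mean of 6.40 CPM in control males and 4.75 CPM at 5 mg/kg, and 32.4 and 13.5 CPM in females, and was not called. Of 10 neutrophil markers, 2 (*Elane* and *S100a9*) were at 0 in all 39 libraries, 4 were tested, and the sum over the 10 was 0 to 28.5 CPM in the male libraries and 6.90 to 56.9 CPM in the female libraries. Apart from *Ly6g*, the markers with reads had them in only 1 to 7 libraries. In controls and at 5 mg/kg the sum was therefore mainly a level of *Ly6g*. Of the 12 genes of the leukotriene list, *Alox5*, *Ltc4s* and *Ltb4r2* were at 0 in all 39 libraries too.

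**Figure D3:**
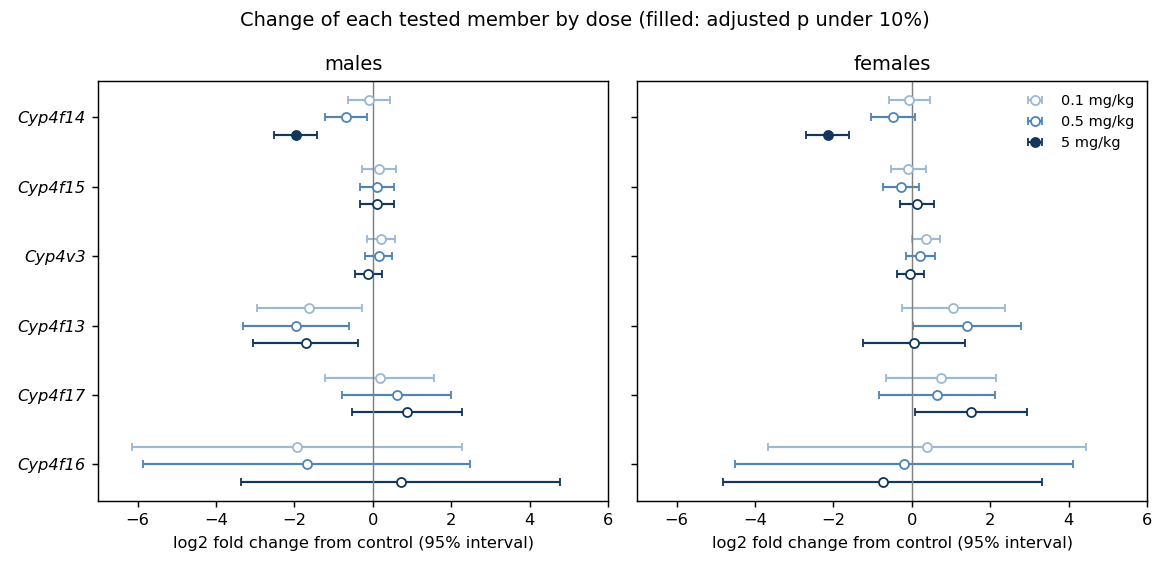
log2 fold change of each tested member from the controls of its sex, with 95% intervals, for males on the left and females on the right. Shades stand for the dose and filled points for an adjusted p under 10%. The filled points are *Cyp4f14* at 5 mg/kg, and the intervals of *Cyp4f16*, counted on about 1 molecule, are the widest.

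Over the 6 members tested, edgeR called 1 at 5 mg/kg in males, beside 8.28% of all probes, and 1 in females, beside 3.66%, both times *Cyp4f14*. In males DESeq2, summed probes, counts in molecules and a fit of only the groups compared each called 2, with *Cyp4f13* added. The steps from 0.5 to 5 mg/kg also gave 1 in each sex, again *Cyp4f14*, beside 2.64% and 1.23% of probes. In 2.01% of probes in males and 1.47% in females, each mouse of the higher dose lay below each of the lower in that step. For males at 0.5 mg/kg, a treated group wholly below its controls was seen in 1.16% of probes. For *Cyp4f13*, the share of probes with all control females below all control males was 1.5%, and that with all females at 0.5 mg/kg above their controls was 0.912%. The median log2 fold change over the 6 members at 5 mg/kg was 0.00 in males and 0.01 in females, against 0.10 and −0.01 over all probes.

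In the remaining comparisons edgeR called 0 members. With controls as reference, 0.0336% of probes were called at 0.1 mg/kg and 2.38% at 0.5 mg/kg in males, and 0% and 0.213% in females. Unadjusted p values under 0.05 were found for 1, 2, 1 and 1 of the 6 members in these comparisons, and DESeq2 called 1, 1, 0 and 0. For the step from 0.1 to 0.5 mg/kg, with 0.498% of probes called in males and 0.168% in females, 1 and 0 members had an unadjusted p under 0.05 and DESeq2 called 0 in each. The change from control differed between the sexes in 0%, 0.274% and 1.04% of probes at 0.1, 0.5 and 5 mg/kg. Among the members, 1, 1 and 0 had an unadjusted p under 0.05 there, and DESeq2 called 1, 1 and 0. For *Cyp4f14* the difference between the sexes at 5 mg/kg was −0.18 in log2, with a 95% interval from −0.92 to 0.57. Control females and control males differed in 3.49% of probes. *Cyp4v3* was lower in control females (log2 fold change −0.50 ± 0.18 SE), with an adjusted p of 0.151 by edgeR and 0.0447 by DESeq2, and it and *Cyp4f13* were the members with an unadjusted p under 0.05.

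Of the members, 5 lie on chromosome 17 and 2 on chromosome 8 (GRCm38, GENCODE M21). *Cyp4f14* spans chr17:32905070-32917342 on the minus strand, and *Cyp4f13*, at chr17:32924688-32947402 on the same strand, lies across a gap of 7.34 kb, and its start is 30.1 kb from that of *Cyp4f14*. *Cyp4f15*, at chr17:32685627-32703352, lies 202 kb away on the plus strand. The stretch of 495 kb from *Cyp4f39* to *Cyp4f13* holds 12 protein-coding genes, of which 10 were tested. Of the 5 tested genes that are not members (*Cyp4f39* and the zinc finger genes *Zfp871*, *Zfp811*, *Zfp799* and *Zfp870*), edgeR called 0 at 5 mg/kg in either sex, and each log2 fold change was smaller than its SE. *Zfp870*, the nearest on the other side, had log2 fold changes of −0.03 ± 0.54 SE in males and −0.14 ± 0.54 SE in females. Promoter windows from RefSeq, from 250 bases before to 50 bases after a gene's start on GRCm38.p6, were found for 6 of the 7 members, with 9 windows in all. The hexamer AGGTCA, the core of the PPARα element, was searched on both strands. It was in none of the 9 windows, several of which are overlapping windows of *Cyp4f14*. Of all 32851 windows, 16.3% held it, and the member windows are too few to be set against that share. The DR1 element, a direct repeat of that hexamer spaced by 1 base, was in 0.0396% of all windows.

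**Figure D4:**
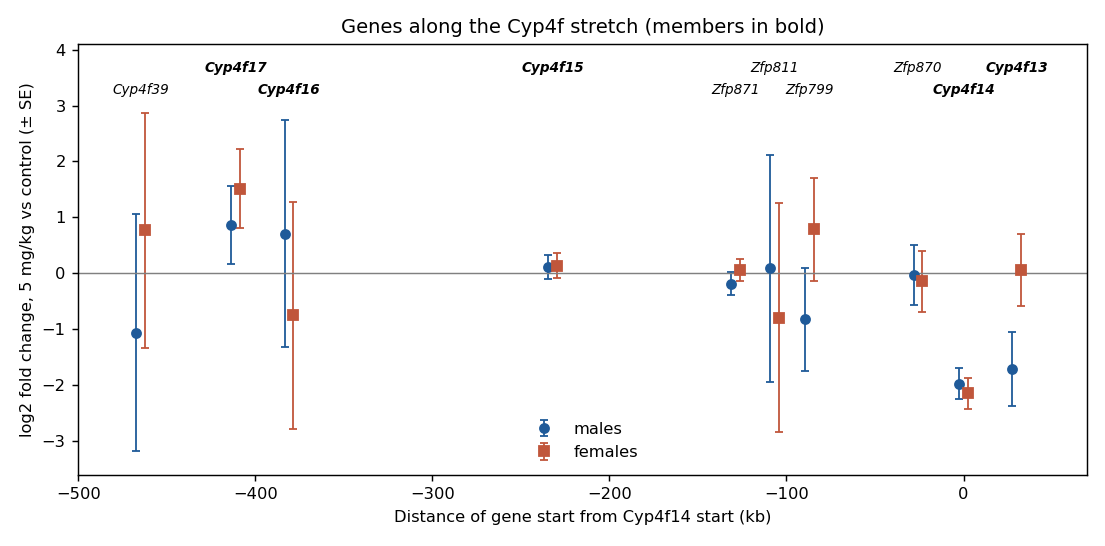
log2 fold change at 5 mg/kg (± SE) of the 10 tested protein-coding genes of the Cyp4f stretch, against the distance of each gene's start from that of *Cyp4f14* in kb. Circles are males and squares are females, and members are in bold. *Cyp4f14* is the gene at which both sexes lie near −2.

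Other genes of omega-hydroxylation increased at 5 mg/kg. Of 8 tested other CYP4 genes, 4 were called higher in males and 6 in females and 0 lower, with a median log2 fold change of 1.70 and 4.03. *Cyp4a31* increased by 4.31 ± 0.26 SE in males and 4.02 ± 0.26 SE in females, and *Cyp4a10* by 5.99 ± 0.42 SE in males. *Cyp4a12a*, a male-predominant fatty acid omega-hydroxylase, was at 169 to 268 CPM in control males and at most 0.0850 CPM in control females, and reached 64.8 to 221 CPM in females at 5 mg/kg. Some Cyp4a genes are close to each other in sequence, so their counts may share reads, which was not checked. *Cyp4f39*, of the same subfamily as the members, was counted at a few molecules and was not called.

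The enzymes that act beside and after omega-hydroxylation were mixed. Of 5 electron donor genes, 1 was called higher in each sex, *Por*, which encodes the P450 reductase, in males (1.05 ± 0.38 SE, adjusted p = 0.0963) and *Cyb5b* in females (0.52 ± 0.13 SE, adjusted p = 0.0109). With DESeq2 size factors in edgeR, *Por* was not called (adjusted p = 0.130) and *Cyb5a*, a cytochrome b5, was called lower in males (log2 fold change −0.31, adjusted p = 0.0972). Of 8 tested alcohol and aldehyde dehydrogenases, 4 were called higher and 3 lower in males, and 4 higher and 1 lower in females, with a median log2 fold change of 0.42 and 0.31. *Aldh3a2*, the fatty aldehyde dehydrogenase, increased by 3.35 ± 0.18 SE in males and 1.79 ± 0.17 SE in females, *Aldh9a1* by 1.12 ± 0.15 SE and *Adh1* by 0.83 ± 0.13 SE in males. The genes called lower were *Adh4* in both sexes and *Adh5* and *Aldh2* in males. Of the 10 genes of peroxisomal shortening of dicarboxylic acids, 7 were called higher in males and 8 in females and 0 lower, with a median of 2.22 and 2.16. *Ehhadh*, the bifunctional enzyme, increased by 5.69 ± 0.20 SE in males and 4.96 ± 0.19 SE in females.

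**Figure D5:**
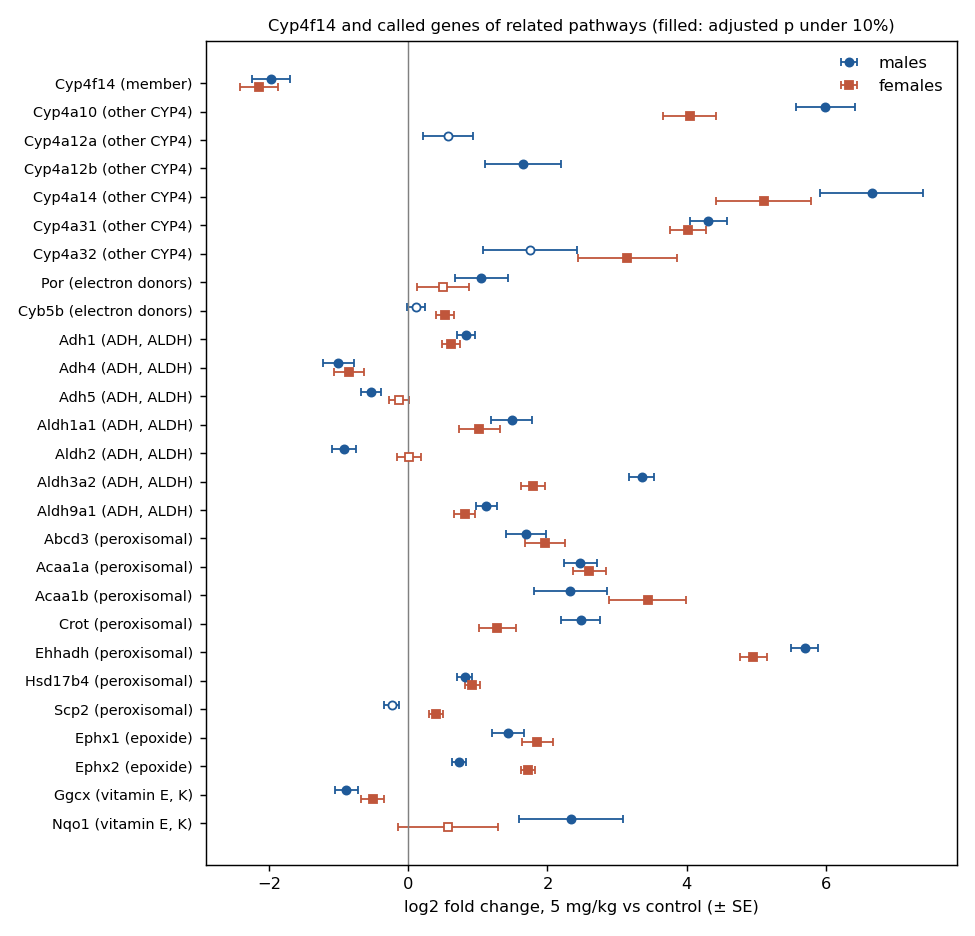
log2 fold change at 5 mg/kg (± SE) of *Cyp4f14* and of genes of the related lists that were called in either sex, with the list in brackets. Circles are males, squares are females, and filled points have an adjusted p under 10%. The females of *Cyp4a12a* and *Cyp4a12b* are not drawn because the control females had almost no reads. *Cyp4f14* has the lowest point in each sex among the genes drawn.

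The substrates of the Cyp4f enzymes have other routes, of which the lists gave the following. In the leukotriene list 8 of 12 genes were tested, and edgeR called 0 at 5 mg/kg in either sex, with a median log2 fold change of −0.11 in males and −0.08 in females. An unadjusted p under 0.05 was found for 1 gene in each sex, and DESeq2 called 0 in males and 1 in females. *Ltb4r1*, *Cysltr2*, *Ggt5*, *Dpep1* and *Pla2g4a* had reads in 5 to 21 of the 39 libraries. Their SE at 5 mg/kg was 2.34 to 2.99, so a change of a few fold was not detectable in most of the tested list. *Lta4h*, which makes leukotriene B4, was counted in all 39 libraries and had log2 fold changes of −0.17 ± 0.28 and −0.21 ± 0.28 SE. Of 5 tested genes of the epoxygenase list, 2 were called higher in each sex and 0 lower, with a median of 0.46 and 0.26, and both were epoxide hydrolases. *Ephx2* increased by 0.73 ± 0.10 SE in males and 1.72 ± 0.10 SE in females, and *Ephx1* by 1.43 ± 0.23 and 1.86 ± 0.23 SE. Of 6 tested genes of vitamin E and K handling, 1 was called higher and 1 lower in males and 1 lower in females, with a median of 0.24 and −0.15. *Ggcx*, the vitamin K-dependent carboxylase, fell by 0.89 on the log2 scale in males and by 0.51 in females (adjusted p = 0.0827, and 0.110 with DESeq2 size factors), and *Nqo1*, a quinone reductase, increased by 2.34 ± 0.75 SE in males. *Ttpa*, which carries vitamin E out of the hepatocyte, was not called (−0.91 ± 0.58 and −0.25 ± 0.57 SE).

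The genes whose log2 CPM followed that of *Cyp4f14* most closely over the 39 libraries were *Serpina1e* (Pearson's r = 0.890), *Ceacam1* (0.887), *Ambp* (0.887), *Adk* (0.865) and *Trf* (0.860). *Serpina1e* is of a family of near-identical protease inhibitors, *Ambp* and *Trf* encode plasma proteins and *Adk* encodes adenosine kinase. These libraries share their dose groups, so such values are a description. *Serpina1e* had a mean of 9626 CPM in control males and 2611 CPM at 5 mg/kg, and 9330.2 and 2468 CPM in females. For *Cyp4v3*, the member with the most reads, the closest were *Mup4* (r = 0.7105), *Mup7* (0.690), *C6* (0.690), *Ugt2b36* (0.690) and *Mup16* (0.680). The Mup genes encode major urinary proteins and are near-identical, so that their probes may share reads. With Spearman's correlation, 1 of the 5 genes remained among the closest 5 for each member, *Adk* for *Cyp4f14* and *C6* for *Cyp4v3*.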

How the data were processed

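Livers of 40 mice were measured by TempO-Seq. The authors extracted reads per probe, and the deposited values are raw counts on 30146 probes, without normalization. The submitters' processing notes name bcl2fastq 2.17.1.14, Bowtie and mm10. Total counts per library set the depth, and the estimated number of captured molecules limits low probes. Samples were grouped by dose and sex from their labels. Tests used edgeR 4.0.16 in R 4.3.3, with filterByExpr, TMM scaling, a shared dispersion over 8 groups, the quasi-likelihood F-test and Benjamini-Hochberg adjustment over 17877 probes, in 14 comparisons. The fit was checked on simulated data for males at 5 mg/kg against control. The simulated reads were drawn without captured molecules, so the check does not cover members counted on few of them. Two-sided p values were used. The most counted probe stood for a gene. DESeq2 1.42.0, other size factors, no filter, all 40 libraries, only the groups compared, summed probes, counts in molecules, a 5% threshold and leaving out each mouse were alternatives. Intervals are for a difference between group means, with an SE from the fit that rests on the spread between mice. The rule named all 7 members, pathway genes called at 5 mg/kg (at most 4 values a list, smallest adjusted p first) and the 5 genes most correlated with a called or the most counted member, *Cyp4v3*. Other genes were named after their values were seen. The members and lists were chosen with earlier results of these data known. Coding sequences (GENCODE M21) were aligned with Biopython 1.88, because protein sequences were not used here. No histology was analysed here. In the peroxisomal list, 1 item is included in the counts and medians and is not reported by itself here.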

Additional observations from a re-analysis of the deposited data

Results flagged for a closer look

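Within 48 sets of a member and a group, 9 had a mouse that stood apart from the other mice by Dixon's test at the 95% level. For normally distributed values chance gives about 1 in 20, which need not hold for low counts with many zeros. For *Cyp4f14* these were the highest male at 0.1 mg/kg (mouse 201, 149.7 CPM, 150 when rounded to 3 digits) and the lowest control female (mouse 154, 89.5 CPM). For *Cyp4f15* it was the highest male at 5 mg/kg (mouse 403, 139 CPM). The others concerned genes counted on a few molecules: *Cyp4f17* in mouse 101, a control male (21.1 CPM), and mouse 255, a female at 0.1 mg/kg (11.1 CPM), *Cyp4f16* in mouse 202, a male at 0.1 mg/kg (4.61 CPM), mouse 301, a male at 0.5 mg/kg (5.5 CPM), and mouse 453, a female at 5 mg/kg (6.45 CPM), and *Cyp4f13* in mouse 453 as well (8.13 CPM). Mouse 453 was the highest of its group in both genes. Mice 202 and 301 were the only mice of their groups with reads on that *Cyp4f16* probe, so their flags were fixed by the zeros of the others.

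*Cyp4f18* had 63 reads on a single probe in the library of mouse 355, which was left out for its depth, and 0 reads in the other 39 libraries. That library had an estimated 92099 molecules, the lowest of all, so 63 reads correspond to about 1 molecule.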

How the results depend on the processing

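The calls of *Cyp4f14* at 5 mg/kg against control were kept in each setting run, with log2 fold changes from −2.04 to −1.93 in males and −2.16 to −2.13 in females over 7 settings and adjusted p values up to 0.0201 and 0.0233. Leaving out each mouse in turn gave −2.26 to −1.75 and −2.40 to −1.98. Leaving out a mouse moved none of 166 counts of members called, which stayed at 1 for either sex at 5 mg/kg and for the steps from 0.5 to 5 mg/kg, and at 0 elsewhere. Of 112 counts under other settings, 14 moved. DESeq2 called 1 member in males at 0.1 mg/kg, 1 in males at 0.5 mg/kg, 2 in males at 5 mg/kg, 1 in each of the interactions at 0.1 and 0.5 mg/kg and 2 between control females and control males. Counts in molecules gave 1 in males at 0.5 mg/kg, 2 in males at 5 mg/kg and 1 in the interaction at 0.5 mg/kg. Fitting only the groups compared gave 1 (*Cyp4f14*) in males at 0.5 mg/kg and 2 in males at 5 mg/kg, and summed probes gave 2 in males at 5 mg/kg. Except for *Cyp4f14* there and *Cyp4v3* between control sexes, the gained gene was *Cyp4f13*, and the cause was not tested. All 40 libraries gave 0 for both steps from 0.5 to 5 mg/kg. Over all probes, counts of calls moved more. Against control at 0.1, 0.5 and 5 mg/kg, edgeR called 6, 425 and 1480 probes in males and 0, 38 and 655 in females, and DESeq2 274, 865 and 1864, and 166, 302 and 988. The lowest counts over the settings were 0, 91 and 834, and 0, 8 and 238, and the highest in males at 5 mg/kg was 2158. For the steps of dose, edgeR called 89 and 472 in males and 30 and 220 in females, and DESeq2 408 and 813, and 266 and 573. For the interactions the counts were 0, 49 and 186 against 216, 389 and 543, and between control sexes 624 against 1092. With DESeq2 size factors in edgeR, the electron donor list had 0 genes called higher and 1 lower in males, the dicarboxylic list gained 1 lower in males (*Scp2*, log2 fold change −0.31, adjusted p = 0.0487), and *Ggcx* was not called in females. Labels did not share replicate numbers between groups. No paired analysis was possible because each mouse number occurs once.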
